A study of Danio rerio with 13 samples.

Results

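Very long methylation peaks were the stretches of at least 3000 bp among the merged peaks of methylated DNA in ZF4 cells. They were chosen by length alone, and 3162 of 160561 merged peaks (1.97%) met the rule. ZF4 is a fibroblast line derived from zebrafish embryos. The cells were grown at 28°C as the control, or were moved to 18°C in the same medium, where they stayed either 5 or 30 days (18°C /5d and 18°C /30d, given as after 5 days and after 30 days), and no genetic change is described for any group. For methylated DNA immunoprecipitation sequencing (MeDIP-seq), DNA from 3 cultures was pooled into 1 library per condition, while RNA-seq had 3 libraries per condition, 9 in all. A difference between MeDIP-seq libraries therefore had no replicate check, and every test on reads compares 2 libraries and not the conditions.

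In fish, as in other vertebrates, most CpG dinucleotides are methylated, within genes and between them, and the main exceptions are CpG islands at promoters. MeDIP-seq captures methylated fragments with an antibody, so the reads on a stretch of DNA reflect its methylation and depend on how many CpG sites it holds. Input DNA was not used here, so differences in copy number or in mapping between stretches of DNA are not removed. A peak is a stretch where reads pile up above their surroundings, and peaks of the 3 libraries that overlapped were joined into 1 merged peak, so a very long peak can be 1 broad enrichment or several neighbouring calls that touch.

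Reads on peaks summed to 2952954 in the 28°C library, to 2465050 after 5 days and to 2406158 after 30 days, and levels are given as reads, as reads per kilobase of peak, or as RPM, the reads divided by a library's total on peaks and multiplied to a common scale. A floor of 3 reads is an RPM between 1.02 and 1.25 in these libraries. The RNA-seq libraries held 21407769 to 44853311 counts. In them the fibroblast markers summed to 356 to 824 RPKM per library, with col1a1a at 161 RPKM or more in every library. Of 10 fibroblast markers listed, 7 were found and 5 reached 1 RPKM in all 9 libraries. The markers vim and thy1 reached 1.47 and 0.834 RPKM at most. The summed markers of blood (at most 0.478), neurons (at most 3.65) and muscle (at most 0.0341) were low, and those of epithelium ranged from 0.154 to 35.9 RPKM, nearly all of it krt4.

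The very long peaks covered 13.8 Mb, 8.38% of all bases under peaks. Their median length was 3772 bp (quartiles 3265 and 4753) and the longest spanned 47999 bp. By length, 1846 were under 4 kb, 648 were of 4 to 5 kb, 613 of 5 to 10 kb, and 55 were of at least 10 kb. The 5 peaks just inside the limit were 3000 to 3001 bp long with 9 to 122 reads at 28°C, and the 5 just outside were 2998 bp long or 1 bp longer with 18 to 49 reads, so that the ranges overlapped.

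Very long peaks lay more often between genes and less often in introns than shorter peaks. Of the 3162 peaks, 1386 (43.8%, 95% Wilson interval 42.1 to 45.6) were intergenic, against 37.6% of the 157399 shorter peaks, and 941 (29.8%, 28.2 to 31.4) were intronic, against 38.4%. Exons held 433 (13.7%, 12.5 to 14.9, against 12.5%) and downstream regions 89 (2.81%, 2.29 to 3.45, against 3.29%). Promoters held 313 (9.90%, 8.91 to 10.99), against 8.30% of shorter peaks. The 5680 peaks of at least 2500 bp, which include the very long ones, were 43.8% intergenic and 30.3% intronic. The intergenic and intronic shares were thus nearly the same with a lower length limit. The intervals cover counting error only and make no allowance for neighbouring peaks that are alike.

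The promoter share was higher in the longer classes of very long peaks. It was 8.23% (7.07 to 9.58) for 3 to 4 kb, 9.57% (7.54 to 12.1) for 4 to 5 kb, 14.5% (11.95 to 17.5) for 5 to 10 kb and 18.2% (10.2 to 30.3) for the 55 longest, while peaks of 2 to 3 kb stood at 8.17%. How the authors ranked a peak that covers several kinds of region is not given in the sources used here, and the part of length itself in this order was not tested. The 55 longest were also less often intergenic (32.7%) than the peaks of 5 to 10 kb (46.8%), although the interval of so few peaks is wide.

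**Figure D1:**
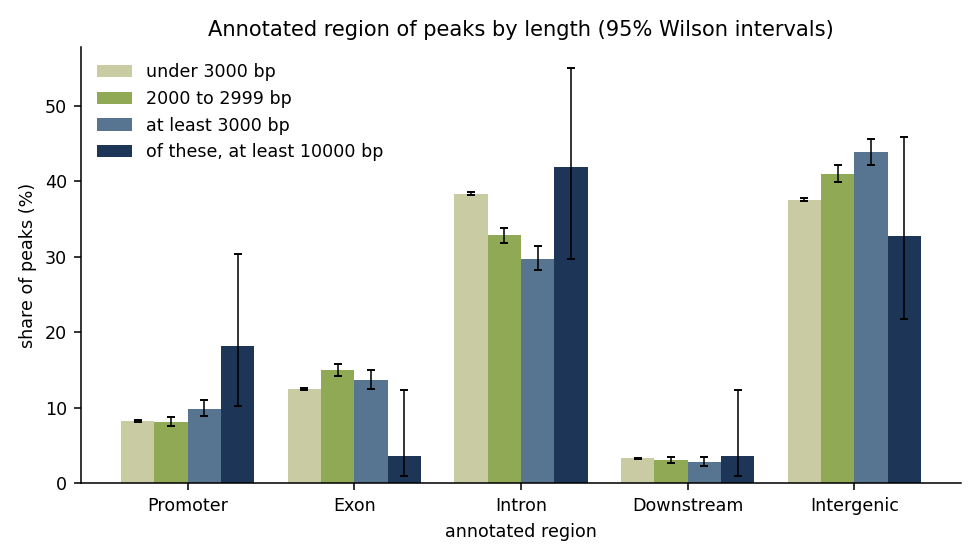
Share of peaks (%) in each annotated region for peaks under 3000 bp, of 2 to 3 kb, of at least 3000 bp and, of these, of at least 10 kb, with 95% Wilson intervals as bars. The very long peaks stand at 43.8% intergenic and 29.8% intronic, against 37.6% and 38.4% for shorter peaks.

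The paper predicted CpG islands and gives the share of methylation peaks that lie in them. The deposited CpG mark, taken here to stand for such an island, was found on 774 very long peaks (24.5%, 23.0 to 26.01) and on 5.99% of shorter peaks. Its frequency broke off between chromosomes 9 and 10 in the deposited annotation. On chromosomes 1 to 9 it was found on 655 of 1252 very long peaks (52.3%, with 43.1 to 65.2% on single chromosomes), and on chromosomes 10 to 25 on 119 of 1910 (6.23%, with 0 to 13.5%). Shorter peaks had the same break, from 10.1% to 3.20%. Whether the mark was assigned in the same way on both sides of the break was not tested, so the CpG shares describe the deposited annotation and may not be those of the genome. Within each of these 2 blocks very long peaks carried the mark more often than shorter ones. On chromosomes 10, 12, 15 and 23 alone they carried it less often. The pooled 24.5% mixes 2 very different shares. On chromosome 12, which had the second highest density of very long peaks, none of 192 was marked. Below the limit, too, the mark was more frequent in longer classes, from 4.47% of peaks of 0.5 to 1 kb through 8.80% at 1 to 2 kb to 14.98% at 2 to 3 kb. A longer stretch has more room to overlap an annotated site, and the part of length itself in these shares was not tested.

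On chromosomes 1 to 9, where marked and unmarked very long peaks were about as many, they resembled each other in most measures. The 655 marked peaks had a median length of 3868 bp and the 597 unmarked peaks 3684 bp. Promoters made up 11.3% of the marked and 7.71% of the unmarked peaks, and the median at 28°C was 11.01 against 12.7 reads per kilobase. Over the whole genome the mark stood on 33.5% of very long promoter peaks, 25.7% of intergenic, 23.6% of downstream, 21.9% of intronic and 19.9% of exonic ones. These shares pool the chromosomes on both sides of the break, and the part of the break in their order was not tested.

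The chromosomes differed in how many of their peaks were very long. Chromosomes 6 and 12 each had 34.8 very long peaks per 1000 peaks, chromosome 14 had 33.2 and chromosome 21 had 27.4, while chromosome 24 had 11.1 and chromosomes 10 and 17 had 11.8. The median chromosome had 17.7. Of 1369 windows of 1 Mb with a peak, 993 (72.5%) held a very long one, and 47 windows with 10 or more held 637 of them. The fullest windows were 9 to 10 Mb on chromosome 12 with 32 very long peaks, 13 to 14 Mb on chromosome 14 with 25, of which 23 were intergenic, and 44 to 45 Mb on chromosome 15 with 24. Very long peaks were thus widespread with a few crowded places. Within 5 Mb of the last peak or the start of a chromosome lay 26.6% of them (25.1 to 28.2), against 24.97% of shorter peaks and 30.4% of peaks of 2 to 3 kb.

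**Figure D2:**
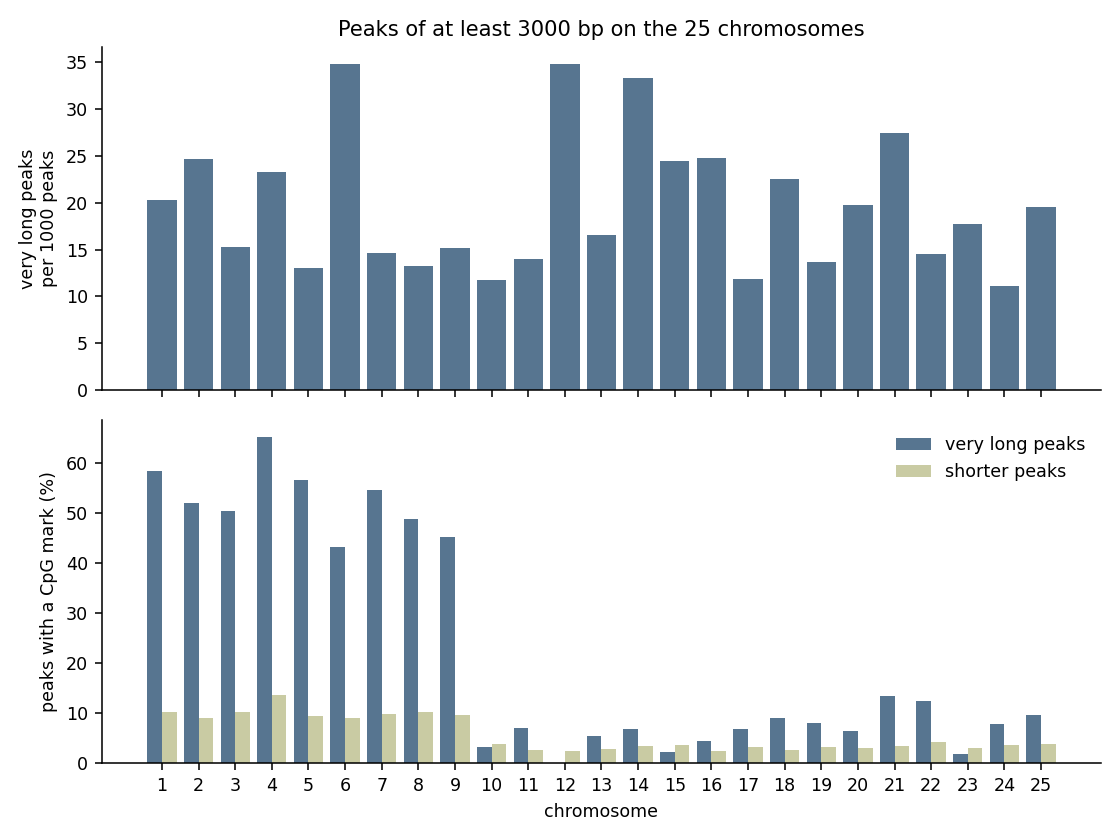
Very long peaks per 1000 peaks (upper panel) and the share of very long and of shorter peaks with a CpG mark in % (lower panel) on chromosomes 1 to 25. Chromosomes 6 and 12 stand highest at 34.8 per 1000, and the CpG share of very long peaks drops from 43.1% or more on chromosomes 1 to 9 to 13.5% or less on chromosomes 10 to 25.

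Very long peaks held 7.50% of the reads on peaks at 28°C, 9.22% after 5 days and 6.91% after 30 days. Their median count was 50 reads at 28°C, 48 after 5 days and 39 after 30 days, against 13, 9 and 11 reads on shorter peaks. Per kilobase the order of the medians turned where shorter peaks were limited to those with reads in all 3 libraries. Summed over the libraries, very long peaks had a median of 33.3 reads per kilobase (quartiles 23.2 and 51.0). The median of these shorter peaks was 55.2. Without this limit the order differed between libraries. Very long peaks covered 8.38% of all bases under peaks, and their share of the reads was below this at 28°C and after 30 days. After 5 days their share, 9.22%, was above it. Among peaks with reads in all 3 libraries, very long ones had a median of 4.15 RPM per kilobase at 28°C and shorter ones 6.91. The median at 28°C was 12.05 reads per kilobase for very long peaks. For all peaks of at least 2500 bp, which include them, it was 12.29. Among the very long peaks those in exons (15.1 reads per kilobase at 28°C) and promoters (14.1) were denser than those in introns (11.3), downstream (11.6) or between genes (11.7). The 55 longest peaks were the thinnest class at 28°C, with 8.41 reads per kilobase, and after 30 days, with 5.42, but after 5 days their 12.4 lay within the range of the other very long classes (10.9 to 12.8).

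Reads from all 3 libraries were found on 3045 very long peaks (96.3%, 95.6 to 96.9), against 46.7% of shorter peaks. The share was higher in longer classes, from 38.0% at 0.5 to 1 kb through 73.7% at 1 to 2 kb to 90.5% at 2 to 3 kb. It was also tied to the number of reads. Among shorter peaks with 86 to 222 reads in total, the middle range of the very long peaks, 99.0% had reads in all 3 libraries, against 98.6% of the very long peaks in the same range. The excess over shorter peaks was therefore not seen at a matched number of reads.

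The remaining 117 very long peaks had a count of 0 in at least 1 library, 32 of them at 28°C, 57 after 5 days and 46 after 30 days. A peak with a 0 was not always a weak one. Of the 117, 21 had at least 100 reads in each other library, or in the only other library with reads, and in 15 of these 21 the 0 stood after 30 days alone. Peaks next to the 117 had reads in the library at 0 in 156 of 270 cases (57.8%), against 70.7 to 74.4% of all peaks in the 3 libraries. Over all peaks, the smallest count above 0 was 2 or 3 reads. What a 0 beside such neighbours stands for was not tested. Each fold change against a 0 is given as a lower bound against the floor of 3 reads, which holds only where the 0 is a measured count. The zeros were most frequent on chromosome 15 (10.9% of its very long peaks), 12 (8.33%), 18 (7.46%) and 20 (7.19%), and there were none on chromosomes 7, 8, 24 and 25.

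The 10 longest peaks differed widely in how they moved between libraries. The longest, on chromosome 4 from 47067053 to 47115051, was annotated as a promoter with a CpG mark and held 320 reads at 28°C, 385 after 5 days and 86 after 30 days. The next, on chromosome 6 from 49204186, was intergenic with 296, 226 and 242 reads over 44659 bp. These counts show a peak with little after 30 days beside a peak that stayed level in the 3 libraries. The fourth longest, 36801 bp on chromosome 13 from 46414045, held 87, 184 and 17 reads. An intron of MINDY3, which encodes a deubiquitinating enzyme, carried 24368 bp on chromosome 16 from 30572739 with 151, 380 and 45 reads. In both the 5-day library was the highest and the 30-day library the lowest. An intron of cdh12a, a cadherin of cell adhesion, carried 20584 bp with 174, 256 and 190 reads. The remaining longest peaks had between 101 and 498 reads at 28°C.

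The densest very long peak covered the promoter of PUS7, which encodes a pseudouridine synthase that modifies RNA, on chromosome 25 from 281864 to 287062. It held 1614 reads at 28°C, 2816 after 5 days and 1154 after 30 days, or 1074 reads per kilobase over the 3 libraries, the most of any very long peak. The promoter peak of sagb, an arrestin of photoreceptors and the pineal gland, held 1002, 1249 and 871 reads over 5309 bp on chromosome 15. An exon peak of PGAP3, which remodels the lipids of GPI-anchored proteins, held 916, 1008 and 588 reads on chromosome 12 from 10214299. All 3 had their highest count after 5 days. At the other end, the thinnest very long peak was intergenic on chromosome 4 from 54522256, with 0, 0 and 8 reads, or 1.60 per kilobase. Also on chromosome 4, between 44605952 and 44645178, 4 promoter peaks of 3349 to 6796 bp held at most 15 reads in any library. The first of these promoter peaks had 15, 0 and 14 reads. The other 3 had none at 28°C or 18°C /5d and 10 or 11 after 30 days. These 3 were among the 5 thinnest very long peaks.

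Dense very long peaks stood together in a few places, which were chosen after their values were seen. Of the 64 very long peaks with over 150 reads per kilobase, 18 were on chromosome 12 and 19 on chromosome 15, and 30 of the 64 lay in 4 blocks. Each block was drawn from the first to the last of at least 3 such dense peaks, with gaps of at most 1 Mb. Its share of very long peaks is therefore raised by the way its borders were set. The peaks beside it, within 1 Mb, could hold no very long peak over the limit of 150. In the block on chromosome 12 from 9252196 to 10328907, 43 of 112 peaks (38.4%) were very long, against 4.26% of the peaks beside it. The block holds JMJD1C, REEP3, EXOC6, EGR2, ERBB2 and PGAP3. The block on chromosome 15 from 20253784 to 20782012 held 17 of 35 (48.6%, beside it 2.68%), with SORL1, SDHD, PPP2R1B, SIK2 and UBASH3B. The block on chromosome 15 from 44504621 to 44959435 held 19 of 64 (29.7%, beside it 2.49%), with sagb and MB21D2. The shortest block, on chromosome 12 from 4984890 to 5103021, held 7 of 14 (50%, beside it 4.64%), with 2 carbonic anhydrase XV genes, ca15a and ca15b, hrc and trpm4b3. Shorter peaks in 3 of the 4 blocks were denser than the very long ones, at 133 to 437 against 84.9 to 163 reads per kilobase, on 2 to 25 shorter peaks with reads in all 3 libraries per block, so high density there was not confined to long peaks. The part of copy number or mapping in the density of these blocks was not tested. Of the 86 very long peaks in the 4 blocks, 19 had a 0 in a library.

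A peak was called different between 2 libraries when Fisher's exact test gave an FDR of 0.01 or less and the ratio of (RPM + 1) was 2 or more, or 0.5 or less. Between the 5-day library and the control, 373 very long peaks (11.8%) were called, against 23.7% of all peaks. Higher after 5 days were 256 (background 11.3% of all peaks) and lower were 117 (background 12.5%). Between the 30-day library and the control, 195 (6.17%) were called against a background of 20.2%, 77 of them higher (background 10.9%) and 118 lower (background 9.25%). Between the 30-day and the 5-day library, 479 (15.1%) were called against 22.9% of all peaks, 127 of them higher (background 14.4%) and 352 lower (background 8.5%). Calls on very long peaks thus leaned to the higher side after 5 days and to the lower side after 30 days against 5 days. With an FDR limit of 0.001 and a 4-fold ratio the lean after 5 days was gone, with 26 called higher and 33 lower.

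The order of very long peaks and other peaks in these shares turned with the treatment of zeros and with the number of reads. Among shorter peaks called after 5 days, 91.1% had a 0 in a library, and after 30 days 99.1%, while among called very long peaks these shares were 15.5% and 35.9%. With zeros set to the smallest count above 0 of their library, 10.1% of very long peaks were called after 5 days against 4.70% of all peaks, and 3.83% against 1.23% after 30 days. With as many reads in total, from 86 to 222, 11.3% of very long and 10.4% of shorter peaks were called after 5 days, and 5.78% and 1.03% after 30 days. The lower share of calls on very long peaks was therefore seen over all peaks with zeros kept as deposited. It was not seen with zeros replaced. Nor was it seen at a matched number of reads, where zeros were kept as deposited.

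The ratio of the very long peaks to 28°C differed between length classes. The median log2 ratio of (RPM + 1) was 0.18 after 5 days and -0.04 after 30 days, against 0 at both times for shorter peaks. Among peaks with reads in all 3 libraries it was 0.19 against -0.002 after 5 days, and -0.04 against 0.06 after 30 days. From the shortest to the longest of the 4 classes of very long peaks it was 0.16, 0.16, 0.27 and 0.83 after 5 days, and -0.01, -0.06, -0.07 and -0.16 after 30 days. The longest class thus stood highest after 5 days and lowest after 30 days. Of these 55 peaks, 22 were called higher and 2 lower after 5 days (background 11.3% and 12.5% of all peaks). After 30 days 1 was called higher and 10 lower (background 10.9% and 9.25%). These backgrounds are not matched for the number of reads. The shorter peaks set beside the very long ones pool every length under 3000 bp. With the length limit lowered to 2500 bp, very long peaks included, the median log2 ratio was 0.15 after 5 days and -0.014 after 30 days. Whether the ratio changes at 3000 bp itself was not tested. Peak length itself rests on calls made in the same 3 libraries, so a peak can be long because 1 library had many reads there, and length and ratio are not independent measures. With 1 library per condition, a difference between libraries and an effect of the temperature cannot be told apart.

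The medians were also taken by chromosome. The median log2 ratio of very long peaks after 5 days lay between 0.02 (chromosome 6) and 0.42 (chromosome 17), and it was above 0, and above that of shorter peaks with reads in all 3 libraries, on 25 of 25 chromosomes. After 30 days it lay between -0.16 and 0.07, below 0 on 18 chromosomes and below that of shorter peaks with reads in all 3 libraries on 25 of 25. The chromosomes share the same libraries and are not replicates. Scaling the libraries by the median ratio instead of the sum shifted the log2 ratio of RPM, before the 1 is added, by -0.08 after 30 days and by 0.01 after 5 days.

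**Figure D3:**
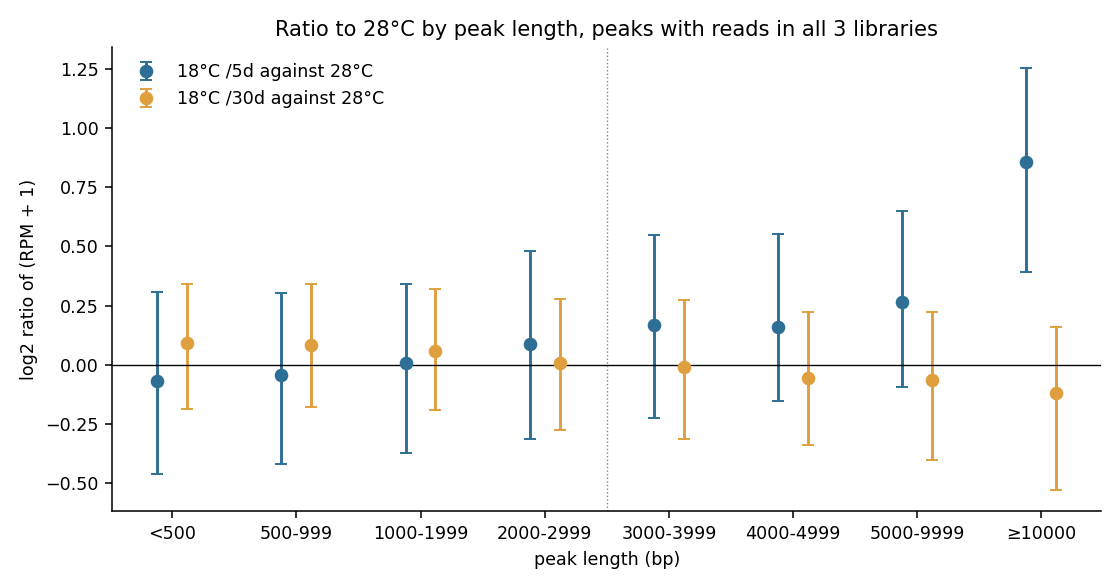
Median log2 ratio of (RPM + 1) against 28°C by peak length (bp) for peaks with reads in all 3 libraries, with the quartiles as bars. The dotted line marks 3000 bp, and at the right end the medians of the 2 times stand farthest apart, at 0.86 after 5 days and -0.12 after 30 days.

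Among peaks with reads in both libraries, the highest ratio to 28°C after 5 days stood on chromosome 3 from 41361412, an intergenic peak with a CpG mark that held 14 reads at 28°C, 162 after 5 days and 11 after 30 days (ratio 11.6). The promoter peak of s100t, which encodes an S100 calcium-binding protein, held 37, 233 and 45 reads (ratio 7.06). An intergenic peak on chromosome 14 from 16937413 held 73, 380 and 66 reads (ratio 6.03). In these 3 peaks the 5-day library alone was high, and the 30-day library was back near the 28°C count.

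The lowest ratios after 5 days were those of a promoter peak of fibrillin 1, a protein of extracellular microfibrils, on chromosome 18 from 4766776 with 62, 9 and 48 reads (ratio 0.211), of a RALGPS2 intron with 48, 7 and 33 reads (0.223) and of an intergenic peak on chromosome 5 from 19356021 with 233, 43 and 144 reads (0.231). RALGPS2, which encodes an exchange factor for the small GTPase RalA, had 4 very long peaks along 34 peaks in all. They held 41, 13 and 21 reads, 68, 32 and 34 reads, 56, 9 and 20 reads, and 48, 7 and 33 reads, and 3 of the 4 were called lower after 5 days. In all 4 the order of the libraries was the same, with 28°C highest and 18°C /5d lowest.

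After 30 days the highest ratios with reads in both libraries came from thin peaks. A promoter peak with a CpG mark on chromosome 4 from 46802221 held 13, 43 and 61 reads (ratio 4.88), an intergenic peak on chromosome 21 from 1142776 held 11, 0 and 35 reads (3.29) and another on chromosome 7 from 74992579 held 9, 17 and 27 reads (3.02). The lowest ratios came from longer peaks. These were as thin, with 7.83 to 22.7 reads per kilobase over the 3 libraries, against 10.2 to 22.6 for the peaks with the highest ratios. An 18489 bp peak in an intron of TMEFF2 on chromosome 9, a transmembrane protein with EGF-like and follistatin-like domains, held 189, 170 and 30 reads (0.207), the 36801 bp peak on chromosome 13 stood at 0.265, and an intron of csmd2 on chromosome 19 held 109, 108 and 25 reads (0.300).

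Calls at both times are given beside backgrounds that are not matched for the number of reads. Of the 3162 very long peaks, 32 were called higher at both times (background 2.98% of all peaks) and 14 lower at both (background 4.87%). Another 9 were called in opposite directions (background 0.0286%). Among the first, an intergenic peak on chromosome 8 from 44334557 held 86, 198 and 144 reads, one on chromosome 19 from 13360873 held 84, 148 and 143 reads, and an exon peak of FAT atypical cadherin 4 on chromosome 14 held 63, 117 and 106 reads. Each of these had both cold libraries above 28°C and the 5-day library highest. Among the second, an intergenic peak on chromosome 10 from 38788575 held 89, 34 and 33 reads, and an exon peak on chromosome 21 from 43719620 held 254, 68 and 0 reads, at least 69.0-fold lower after 30 days.

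Some very long peaks stood beside each other. The median gap from a very long peak to its nearest peak of any length was 768 bp, against 1950 bp for shorter peaks. Between successive very long peaks the median gap was 147 kb, and 415 of 3137 such gaps were at most 10 kb. Of the very long peaks, 265 formed 67 runs of at least 3 with gaps of at most 10 kb. No peak was called against 28°C in 28 of the 67 runs. In 2 runs at least 3 peaks were called higher after 5 days and in 2 at least 3 were called lower, and no run had calls in both directions at that time. After 30 days, 4 runs had at least 3 peaks called lower and 0 had at least 3 called higher, and 2 runs had calls in both directions. The longest run, 11 intergenic peaks on chromosome 9 from 17374085 to 17448015, held 538, 499 and 480 reads in sum, and only its first peak, with 43, 53 and 76 reads, was called, as higher after 30 days.

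The run with the most calls lay on chromosome 20 from 14439184 to 14491295 and was intergenic. Its 7 peaks held 1353 reads at 28°C, 530 after 5 days and 360 after 30 days. At 28°C each peak had between 143 and 245 reads, after 5 days between 42 and 121. After 30 days the peaks split, with 92, 131 and 137 reads on 3 of them and 0 on the other 4. Along the chromosome the counts ran 0, 92, 0, 0, 131, 0 and 137. After 5 days 4 were called lower and after 30 days 5 were. The 28°C library was the highest on all 7.

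**Figure D4:**
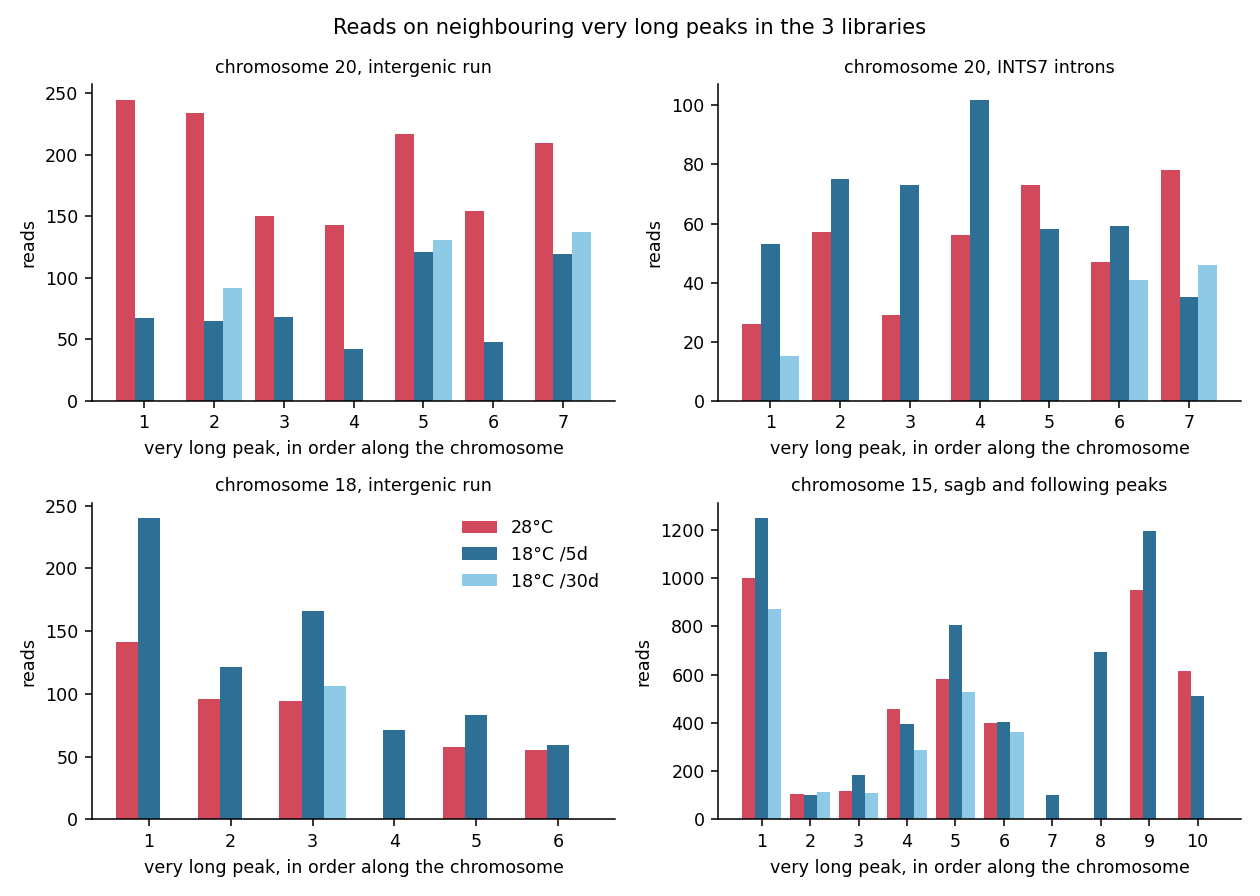
Reads in the 3 libraries (red 28°C, dark blue 18°C /5d, light blue 18°C /30d) on neighbouring very long peaks in 4 places, in order along the chromosome. In the run on chromosome 20 the 28°C bars are the highest on all 7 peaks, and after 30 days a count of 0 alternates with counts of 92 to 137.

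The introns of INTS7, which encodes a subunit of the Integrator complex that processes small nuclear RNAs, carried 6 very long peaks in a row on chromosome 20 from 12936926 to 12971875 and a seventh from 12997162. In order, they held 26, 57, 29, 56, 73, 47 and 78 reads at 28°C, and 53, 75, 73, 102, 58, 59 and 35 reads after 5 days. After 30 days they held 15, 0, 0, 0, 0, 41 and 46 reads. The middle 4 were at 0 in the 30-day library alone, and these 4 were called lower there, by at least 7.88-fold to at least 19.8-fold. After 5 days, 3 of the 7 were called higher.

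An intergenic run of 6 peaks on chromosome 18 from 7879681 to 7935996 had a similar order of the libraries. It held 141, 96, 94, 0, 58 and 55 reads at 28°C and 240, 121, 166, 71, 83 and 59 after 5 days. After 30 days 5 of the 6 were at 0 and the third held 106 reads. After 5 days 3 were called higher and after 30 days 4 lower. The introns of TMEFF2 carried 3 neighbouring peaks with 28, 77 and 189 reads at 28°C, 27, 103 and 170 after 5 days and 0, 0 and 30 after 30 days, and all 3 were called lower after 30 days.

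In 2 places with some of the longest peaks the 5-day library stood out. At the start of chromosome 18, a 24074 bp promoter peak from 19226 held 498 reads at 28°C, 1751 after 5 days and 457 after 30 days (ratio 4.19 after 5 days), and a 6906 bp peak from 46628 held 472, 1284 and 346 (ratio 3.24). The promoter peak before them, from 14522, held 124, 90 and 99 reads and was not called. On chromosome 1, peaks of 24429 bp from 53911814, in an intron of an ELMO/CED-12 domain gene, and of 42162 bp from 53954308 held 101, 302 and 108 and 302, 520 and 162 reads, both called higher after 5 days. The 6137 bp peak between them held 251, 196 and 211 reads. In both places a called peak thus stood beside an uncalled one that was level in the 3 libraries.

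On chromosome 15, in the block with sagb, 10 neighbouring very long peaks had no call over the first 6 and were uneven over the last 4. Over the first 6 they held 107 to 1002 reads at 28°C, 102 to 1249 after 5 days and 111 to 871 after 30 days. Their ratios to 28°C were 1.03 to 1.85 after 5 days and 0.775 to 1.31 after 30 days. The last 4 held 0, 0, 952 and 614 reads at 28°C and 100, 692, 1197 and 512 after 5 days. After 30 days all 4 were at 0. The largest of these bounds were at least 276-fold higher after 5 days for the peak from 44936668 and at least 259-fold lower after 30 days for the next, from 44942328. Such bounds rest on a 0 beside a neighbour with many reads in the same library.

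The authors assigned 1639 very long peaks (51.8%) to a gene, against 58.5% of shorter peaks, and the assigned genes were 1281, of which 915 had a symbol in the annotation used here. Of these genes 1052 had 1 very long peak and 229 had 2 or more. Genes were grouped by single words in their descriptions, which can also name a partner of the family. The word receptor was found for 107 of the 1281 (8.35%), against 5.74% of 18777 genes with a peak, kinase for 60 (4.68%, against 3.58%) and channel for 22 (1.72%, against 1.46%). The word cadherin was found for 13 (1.01%, against 0.474%), among them cdh12a, cdh16, CDH13 and PCDH7, but also CTNNA2, an alpha-catenin that binds cadherins and is not one. Homeobox was found for 2 (0.156%, against 0.772%). The length deposited with the RNA counts, which is not the span of a gene on the genome, had a median of 3801 bp for genes with a very long peak and 2777.5 bp for genes with shorter peaks only, and the part of gene length in these shares was not tested.

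JMJD1C, a jumonji-domain protein related to histone demethylases, had the most very long peaks, 11 of its 26 peaks, from 9370842 to 9557335 on chromosome 12. In 8 of the 11 all 3 libraries had reads, at 53 to 416 at 28°C, 39 to 435 after 5 days and 52 to 266 after 30 days. The other 3 held 69, 0 and 75 reads, 37, 0 and 37 reads, and 0, 0 and 35 reads, and these 3 were the only ones called against 28°C. EXOC6, a subunit of the exocyst that tethers vesicles to the plasma membrane, had 9 of its 16 peaks very long. Of these, 7 had reads in all 3 libraries and were not called against 28°C, with 67 to 401 reads at 28°C, 65 to 408 after 5 days and 74 to 215 after 30 days. The peak with 297, 408 and 195 reads was called lower after 30 days than after 5 days. The other neighbouring pair held 0, 35 and 48 reads and 160, 137 and 0 reads, and was called.

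ERBB2, a receptor tyrosine kinase of the EGF receptor family, had 4 peaks, all of them very long. They held 277, 242 and 207 reads, 497, 591 and 402 reads, 0, 334 and 257 reads, and 480, 503 and 0 reads. The first 2 were not called. The third was at least 133-fold higher after 5 days and at least 105-fold higher after 30 days than at 28°C, and the fourth at least 130-fold lower after 30 days. Other genes with several were zgc:158580 and INTS7 with 7, LOXL3, which encodes a lysyl oxidase-like enzyme, and ASIC2, a proton-gated sodium channel, with 6, and NEO1, the receptor neogenin, ANKRD13B, SLC44A5 and COL14A1 with 5. Across the 6 peaks of LOXL3 the sums were 229, 248 and 180 reads, across those of ASIC2 211, 219 and 175, and across the 5 of NEO1 358, 350 and 270.

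Genes with a very long peak were more often expressed than other genes with peaks. At 28°C the median was 2.70 RPKM against 1.57 RPKM for genes with shorter peaks only, and 82.4% against 72.8% had reads in all 9 libraries. The medians of the single 28°C libraries ranged from 2.10 to 3.06 RPKM and from 1.28 to 1.52 RPKM and did not overlap. For genes with a very long promoter peak the median was 1.68 RPKM, and 73.8% had reads in all 9 libraries. For genes with a very long exon or intron peak these values were 2.93 RPKM and 85.4%. The median deposited lengths of these groups were 2460 and 4228.5 bp, and the part of gene length in these values was not tested.

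In RNA-seq, no gene with a very long peak changed past the threshold in the fit without a replicate term. Of the 1281 genes 1094 were tested with edgeR, and 0 had an adjusted p under 0.05 after 5 days (background 0% of 19622 genes, none called) and 0 after 30 days (background 0.0612%, 0.0408% higher and 0.0204% lower). At an unadjusted p under 0.05 there were 124 (11.3%, against 11.3% of all genes tested) and 131 (11.97%, against 13.7%). With the replicate number as a block, 1 gene was called after 5 days (0.0914%, background 0.26%) and 26 after 30 days (2.38%, background 1.51%), 16 of them higher (background 1.02%) and 10 lower (0.494%). DESeq2 called 34 of 1123 (3.03%, background 2.68%) after 5 days, 19 higher (background 1.69%) and 15 lower (0.995%), and 46 (4.10%, background 4.34%) after 30 days, 32 higher (background 2.91%) and 14 lower (1.43%). The share was thus above the background with the block after 30 days and below it after 5 days, and close to it with DESeq2. In bulk RNA, fewer expressing cells and less RNA per cell cannot be told apart.

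The genes called with the block were looked up after their values were seen. CACNG5, an auxiliary subunit of calcium channels, was the 1 called after 5 days and was called at both times. It stood at 8.94, 2.80 and 27.4 RPKM at 28°C, at 1.54, 0.504 and 3.24 RPKM after 5 days and at 1.01, 0.516 and 1.98 RPKM after 30 days. Its groups overlapped after 5 days but not after 30 days, and in each numbered set of libraries the 28°C value was the highest (log2 fold change with the block after 30 days -3.15, adjusted p 0.0173). MEGF6 stood at 4.42, 6.60 and 2.43 RPKM at 28°C and at 29.1, 35.7 and 15.2 RPKM after 30 days (log2 fold change 2.58, adjusted p 0.0252). The 2 groups of MEGF6 did not overlap. Others called higher after 30 days were the actin-binding myot, LGR4, a receptor for R-spondins, XYLT1, which starts proteoglycan chains, and the collagen COL12A1, and others called lower were cygb2, a cytoglobin, ANGPT1, a ligand of the Tie2 receptor, and ephb4b, an ephrin receptor. In the fit without a block the adjusted p of CACNG5 and MEGF6 was 0.166 and 0.0839 after 30 days.

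The genes with the most very long peaks had no call in either edgeR fit. EXOC6 stood at 20.3, 21.3 and 25.6 RPKM at 28°C, at 38.8, 29.7 and 30.1 after 5 days and at 53.6, 40.2 and 42.5 after 30 days. The 3 groups did not overlap, and the log2 fold change after 30 days was 1.02 (adjusted p 0.171 without and 0.0549 with the block). JMJD1C stood at 27.4, 25.5 and 58.6 RPKM at 28°C and at 30.7, 28.7 and 63.0 after 30 days, with the third library the highest in both groups (log2 fold change 0.13, adjusted p 0.943). INTS7 stood at 3.76, 2.91 and 4.92 RPKM at 28°C, at 2.52, 3.46 and 1.80 after 5 days and at 2.38, 2.77 and 1.51 after 30 days, with no overlap between the first and the last (-0.80, adjusted p 0.349). ERBB2 had means of 45.6, 26.1 and 26.2 RPKM, with 1 library at 28°C at 79.4 and the other 2 at 26.6 and 30.8, so that its groups overlapped. TMEFF2 had means of 9.99, 13.4 and 9.44 RPKM, and its groups overlapped. REEP3, a protein of the endoplasmic reticulum, had means of 125, 169 and 205 RPKM, with 73.2 to 172 at 28°C and 175 to 265 after 30 days.

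**Figure D5:**
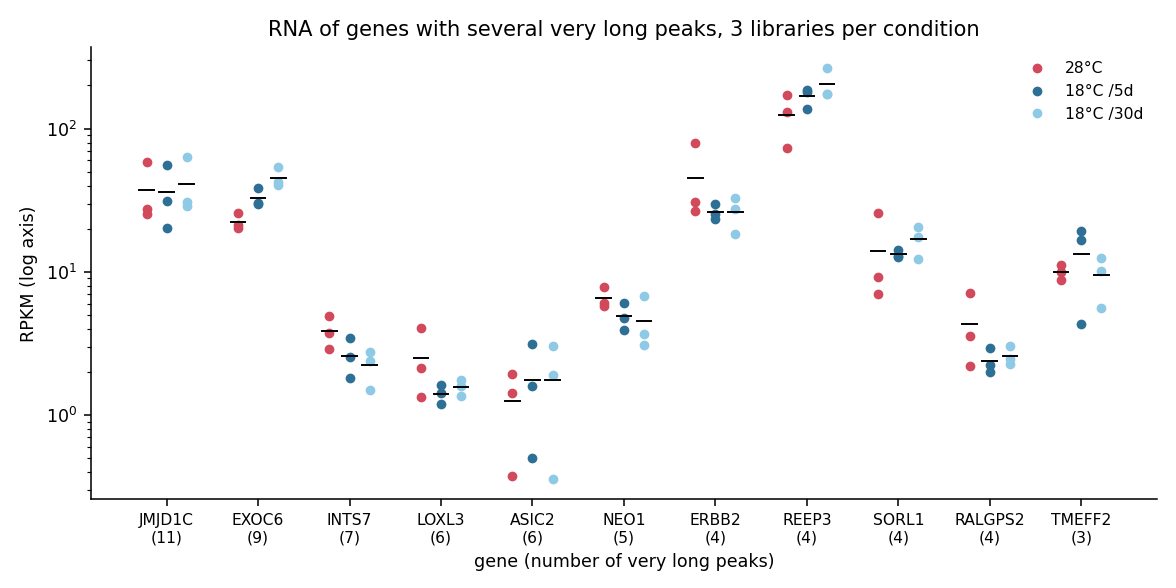
RPKM (log axis) of 11 genes with several very long peaks in each of the 3 libraries per condition, with the mean as a bar and the number of very long peaks in brackets. EXOC6 (9 peaks) is the only 1 of the 11 whose 3 groups stand apart, from 20.3 RPKM at the lowest to 53.6 RPKM at the highest.

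The direction of a call on the peak and that of the RNA were set side by side for all genes with a called very long peak. The 106 tested genes with a peak called higher after 5 days had a median log2 fold change of -0.12 in RNA at that time, and the 48 with a peak called lower had 0.002, against -0.01 for all genes tested. After 30 days the 33 genes with a peak called higher had -0.07 and the 47 with a peak called lower -0.25, against -0.01. The share with an RNA log2 fold change above 0 was 42.5% and 50% after 5 days and 39.4% and 36.2% after 30 days. After 5 days the median was thus lower for genes with a peak called higher than for those with a peak called lower, also with the replicate block (-0.05 and 0.07) and with DESeq2 (-0.09 and 0.05). After 30 days both medians lay below that of all genes. With the replicate block they were -0.14 and -0.15 at that time, nearly equal, and with DESeq2 -0.05 and -0.21. All tested genes with a very long peak had a median of -0.05 after 5 days and -0.04 after 30 days without the block. For genes with 2 or more very long peaks it was -0.13 and -0.15. These medians were not tested.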

How the data were processed

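MeDIP-seq reads that passed a quality filter (FASTX-Toolkit) were aligned by the authors to Zv9/danRer7 with Bowtie2. Peaks came from MACS, run per library, and were joined where they overlapped (Bedtools). The authors deposited counts of reads on each merged peak, per library. The authors also deposited RPM values, which are relative to the reads on all merged peaks, and the annotation of each peak to a region, a gene and a CpG mark. The processing behind the deposited RNA-seq counts per Ensembl gene is not given in the sources used here, and their 18 columns of RPKM and TPM values per sample were not used. Columns of the authors' own comparisons (ratios, p-values, FDR and log2 fold changes) were not used, and an input DNA library was not analysed here.

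Very long peaks, gene families and markers were chosen with earlier results of these data known. Each peak was tested with a two-sided Fisher's exact test of its reads against the other reads on peaks (scipy 1.17.1), adjusted by Benjamini-Hochberg over all 160561 peaks. For RNA-seq, edgeR 4.0.16 was run on the counts of all 9 libraries (TMM, filterByExpr, quasi-likelihood test), with DESeq2 1.42.0 as an alternative, at an adjusted p under 0.05 by Benjamini-Hochberg over all genes tested. RPKM was computed from the counts, the deposited gene lengths and TMM-scaled totals. Libraries with the same replicate number deviated together (correlation of deviations from the condition means 0.251 to 0.653 in 9 pairs). In 18 pairs with different numbers the mean was -0.204 (range -0.671 to 0.491), so the ranges overlapped. Every negative value was between replicate 3 and another number, while pairs of replicates 1 and 2 were positive (0.128 to 0.491). Replicate 3 also had the lowest total count in each condition, 21407769 to 22504969 against 37509447 or more. The data thus set replicate 3 apart and do not clearly separate replicates 1 and 2. Values with the replicate as a block are given with this limit. The labels do not say that RNA-seq libraries came from separate cultures, so p-values measure only the spread between these samples.

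Peaks named in the text were the longest, the densest and thinnest, those with the highest and lowest ratios (with and without a 0), those called at both times and the promoter and CpG-marked peaks with most reads; genes were those of these peaks and those with 2 or more very long peaks. Runs, dense blocks and genes called with the block were named after their values were seen. Both tests were tested on simulated data, and no outcome is given here. The simulated RNA counts had no replicate effect, so they do not show how the RNA test behaves with that of these libraries. Alternatives were other length limits, pseudocounts, scalings, thresholds and treatments of zeros for peaks, and DESeq2, no filter, a replicate block, only 6 libraries and leaving out each library for RNA. Leaving out the dense blocks, and the split of the CpG share by chromosome, were chosen after seeing the data. No genome sequence was used.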

Additional observations from a re-analysis of the deposited data

Results flagged for a closer look

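Very long peaks called against 28°C in opposite directions at the 2 times numbered 9 (background 0.0286% of all peaks). This background is not matched for the number of reads, and the difference between the times was not tested. Higher at 18°C /5d and lower at 18°C /30d were the peak in an intron of MINDY3 on chromosome 16 from 30572739 (ratios of 2.98 and 0.378), the promoter peak on chromosome 4 from 35015858 (2.50 and 0.497) and the 36801 bp peak on chromosome 13 from 46414045 (2.48 and 0.265). With a 0 at 18°C /30d, the same order was seen on chromosome 13 from 46463805 (3.10, and at least 12.8-fold lower), chromosome 18 from 7879681 (2.02, and at least 38.3-fold lower), and in the introns of INTS7 on chromosome 20 from 12946222 (2.83, and at least 7.88-fold lower) and from 12951873 (2.12, and at least 15.2-fold lower). The reverse order was seen on chromosome 4 from 49030150 (0.410 and 2.15) and on chromosome 21 from 1142776 (at least 3.06-fold lower, and 3.29). In 7 of the 9 the 18°C /5d library thus stood highest.

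The median log2 ratio to 28°C also lay on opposite sides of 0 at the 2 times, at 0.18 for 18°C /5d and -0.037 for 18°C /30d over all very long peaks, and at 0.83 and -0.16 over the 55 peaks of at least 10 kb. This difference was not tested, since each condition had 1 library.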

How the results depend on the processing

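The 15 results recomputed are values of the very long peaks and their genes alone. Of 104 alternatives, 84 left such a value close to that reported, 20 moved it and 0 turned its sign. Only the median log2 ratios could turn sign, since the other results are shares or densities. Among the 84 are RNA shares that stayed at 0, where few or no genes of any kind were called. The order of very long peaks against all peaks did turn with the zeros. At 18°C /5d, 11.8% against 23.7% called became 10.1% against 4.70% with zeros replaced and 8.64% against 3.30% where each library had reads. At an FDR of at most 0.001 and 4-fold, 1.87% of very long peaks were called at 18°C /5d, 1.93% at 18°C /30d and 3.42% between the 2 cold libraries, as the stricter limits leave fewer, and the 256 higher and 117 lower at 18°C /5d became 26 and 33. At 18°C /30d the share called was 3.83% with zeros replaced and 1.48% where each library had reads. Its median log2 ratio was -0.11 with libraries scaled by the median ratio, -0.014 from 2500 bp and -0.069 from 4000 bp, negative throughout. The promoter share was 12.2% from 4000 bp and 11.04% when weighted by length, and the exon share 11.9% from 4000 bp. The CpG share was 22.2% from 2500 bp, 26.7% from 4000 bp, 52.3% on chromosomes 1 to 9 and 6.23% on chromosomes 10 to 25. From 2500 bp, 95.1% had reads in all 3 libraries. Leaving out the 4 dense blocks, chosen after seeing the data, moved none of the 10 results recomputed without them, those on calls, log2 ratios and genomic regions. In RNA, the share of genes called was 0.0914% at 18°C /5d and 2.38% at 18°C /30d with the replicate block, 3.03% and 4.10% with DESeq2, and 0 to 0% when each library was left out in turn.

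The depth limits single peaks more than classes. A very long peak with the median 50 reads at 28°C is well above the floor of 3 reads, but the thinnest held 8 reads in 1 library and 0 in the others. With 1 library per condition, no difference between libraries can be set against a spread, and the meaning of the zeros, on which the bounds in the text rest, was not tested.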
